A study of Mus musculus with 2 samples.

Results

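The CCN genes encode a small family of secreted proteins that sit in the extracellular matrix. The members described here are Cyr61, Ctgf, Nov, Wisp1 and Wisp2, named by the old symbols of the gene list, which current annotation calls Ccn1 to Ccn5. They were 5 of the 31053 genes listed, and the rule that chose them was family membership. All 5 had unique molecular identifiers (UMIs, which count captured RNA molecules) in both libraries.

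The data are single-cell RNA counts from subcutaneous tumours of B16F10, a mouse melanoma line, that were collected while small. One library came from Rosa26::CreERT2 mice with intact Atf4, labelled Atf4wt/wt (WT), and 1 from Rosa26::CreERT2 mice with floxed Atf4, labelled Atf4D/D (KO). Both genotypes were given tamoxifen, so Cre was induced in both. Each library pooled 2 tumours from male and female C57BL/6 mice aged 11 weeks per the labels. The WT counts gave no sign of male cells, as described below. The Rosa26 locus is active in all tissues, so the deletion was not restricted to fibroblasts, and the study describes it as efficient but not complete. The injected melanoma cells kept their own Atf4 in both libraries. With 1 library per genotype there was no replicate, no test between genotypes is possible, and differences between the mice of a pool cannot be told apart from genotype. Intervals given below are exact 95% intervals for counting error alone, and UMIs that cluster in a few cells vary more than these intervals show.

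CCN proteins are matricellular: they do not mainly build the matrix but bind integrins, low-density lipoprotein receptor-related proteins, heparan sulphate proteoglycans and growth factors. Cyr61 and Ctgf are classical targets of the mechanosensitive YAP/TEAD and SRF transcription factors and are induced fast by serum, TGF-beta and stretch. Ctgf is known for its link with fibrosis, Nov for effects that often oppose those of Ctgf, and Wisp1 and Wisp2 as genes induced by Wnt1. Wisp2 lacks the C-terminal cystine knot domain that the other members have.

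In GENCODE vM21, on build GRCm38, Cyr61 (ENSMUSG00000028195) lies on the minus strand of chromosome 3 at 145646976 to 145649981. Ctgf (ENSMUSG00000019997) lies on the plus strand of chromosome 10 at 24595442 to 24598683. Nov (ENSMUSG00000037362) and Wisp1 (ENSMUSG00000005124) lie on the plus strand of chromosome 15, at 54745702 to 54754039 and at 66891320 to 66923201. Wisp2 (ENSMUSG00000027656) lies on the plus strand of chromosome 2 at 163820861 to 163833146. All are protein coding. The coding sequence has 379 codons in Cyr61, 348 in Ctgf, 354 in Nov and 367 in Wisp1, and it is spread over 5 exons in each. Wisp2 has 251 codons in 4 coding exons.

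The family resemblance shows in the insulin-like growth factor binding domain, where all 5 genes share a run of closely spaced cysteines. The coding bases of that run are printed below, 5′ to 3′ on the coding strand, with the cysteine codons in capitals, to show what the members have in common.
Cyr61: ggcTGCggcTGCTGTaaggtcTGC
Ctgf: ggcTGCggcTGCTGCcgcgtcTGC
Nov: ggcTGCtccTGCTGTccggtgTGC
Wisp1: ggcTGTgaaTGCTGTaagataTGT
Wisp2: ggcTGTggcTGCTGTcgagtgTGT
The run starts at codon 49 in Cyr61, 52 in Ctgf, 54 in Nov, 72 in Wisp1 and 49 in Wisp2. It lies in exon 2 of the first 4 genes and in exon 3 of Wisp2. The run was found by a search for this spacing of cysteines, so the equal spacing is set by the search. Some codons between the cysteines are shared by several members and others differ.

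Of the 5 members, 1 was matched in the RefSeq promoter table on GRCm38.p6, namely Cyr61. Its 250 bases before the transcription start, at chr3:145649986-145650235 on the minus strand, are shown because Cyr61 is a textbook YAP/TEAD target and the data below include the other targets of these factors.
Cyr61 promoter: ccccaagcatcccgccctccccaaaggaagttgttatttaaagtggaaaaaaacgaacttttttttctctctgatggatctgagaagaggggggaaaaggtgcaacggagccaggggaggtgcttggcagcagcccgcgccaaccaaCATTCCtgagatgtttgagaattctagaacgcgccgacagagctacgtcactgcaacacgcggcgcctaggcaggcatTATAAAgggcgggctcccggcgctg
Capitals mark a match to the TEAD motif GGAATG, read here from the other strand, that starts 103 bases before the transcription start, and a TATAAA box that starts 25 bases before it. Searched on both strands, GGAATG was found in 12.6% of 32851 promoters of the same length and TATAAA in 12.4%. The CArG box, the motif of SRF, was found in 1.47% of promoters and not in this window.

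Filtering left 3861 cells of the WT library and 3557 of the KO library, and 10 barcodes occurred in both libraries. Cells were sorted into classes by marker genes, none of them a CCN gene. The fibroblast gate held 188 WT cells with 729763 UMIs and 230 KO cells with 926154 UMIs, at median depths of 3739.5 and 3705 UMIs. The melanoma gate held 1729 and 1793 cells, the myeloid gate 1390 and 1002, the endothelial gate 72 and 26, and the T/NK gate 60 and 21. Cells over 2 or more gates (156 WT and 74 KO) were called mixed and cells over none (251 and 402) ungated. Atf4, the deleted gene, was at 255 CPM (counts-per-1e6 UMIs of the class) in WT and 44.3 CPM in KO fibroblasts, and at 226 and 200 CPM in melanoma cells. In endothelial cells it had 64 UMIs in WT and 0 in KO.

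The libraries differed in more than Atf4. The Y-linked genes Ddx3y, Eif2s3y, Kdm5d and Uty together had 0 UMIs in WT fibroblasts and 72 UMIs, or 77.7 CPM, in KO fibroblasts, while Xist was at 593 and 199 CPM. Summed over every kept cell, the Y-linked genes reached 11.6 CPM in the KO library but had no UMI in the WT library. Cells with Y-linked UMIs were therefore found in KO alone, although the labels name mice of both sexes for each library. Sex was thus confounded with genotype beyond the fibroblasts, and there was no WT set with Y-linked UMIs to compare. Values by sex tag are given below for fibroblasts. The hypoxic list summed to 699 CPM in WT and 1692 CPM in KO fibroblasts, the activated list to 5562 and 3077 CPM and the cycling list to 714 and 340 CPM. Their part in the CCN values was not tested beyond the subtype values below. In the fibroblast gate, all 7 melanoma markers were detected in each library, and their sum was 545 CPM in WT and 633 CPM in KO, or 5.09% and 7.44% of the level in the whole library. The 10 myeloid markers summed to 123 and 89.6 CPM. Free RNA on the scale of the melanoma markers would bring at most 3.98 CPM of any CCN gene into the fibroblasts, which is the value for Cyr61 in KO.

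Fibroblasts carried most of the UMIs of Nov and Wisp2, and of Ctgf and Wisp1 more than any other class did, while Cyr61 came mainly from melanoma cells. Of the Cyr61 UMIs in kept cells, 75.3% in WT and 70.4% in KO were in melanoma cells, against 12.8% and 7.55% in fibroblasts. For Ctgf the fibroblast share was 56.3% in WT and 44.0% in KO, and for Wisp1 63.7% and 38.7%. For Nov it was 60% and 73.0%, and for Wisp2 82.0% and 83.3%. In kept cells of WT and KO the totals were 1109 and 1351 UMIs of Cyr61, 366 and 250 of Ctgf, 20 and 74 of Nov, 215 and 137 of Wisp1, and 100 and 12 of Wisp2. Nov and Wisp2 therefore rest on few molecules in 1 of the libraries.

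**Figure D1:**
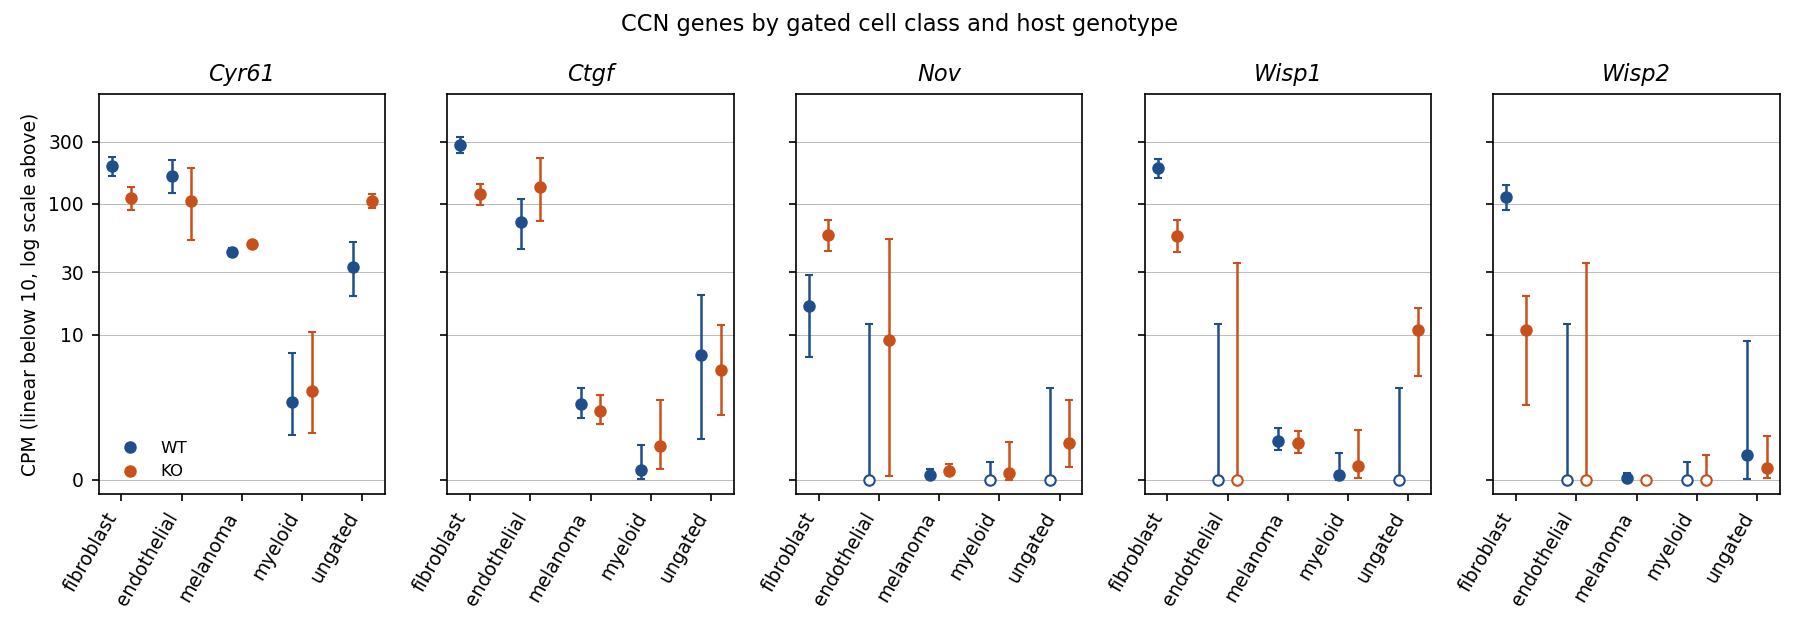
Level of each CCN gene (CPM, linear below 10 and logarithmic above) in 5 gated classes, WT in blue and KO in orange, with exact 95% Poisson intervals. Open circles mark classes with 0 UMIs. Cyr61 and Ctgf were present in fibroblasts and endothelial cells, whereas Nov, Wisp1 and Wisp2 were highest in fibroblasts.

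Cyr61 was the most widespread member. In WT it was at 195 CPM in fibroblasts (164 to 229, 142 UMIs) and 164 CPM in endothelial cells (122 to 216, 50 UMIs), and these intervals overlap. Melanoma cells followed at 42.7 CPM (39.9 to 45.7) and myeloid cells at 5.38 CPM (3.08 to 8.74), each below the class before it. In KO the order was the same, with 110 CPM in fibroblasts (89.8 to 134, 102 UMIs), 106 CPM in endothelial cells (52.9 to 190, 11 UMIs), 49.2 CPM in melanoma cells (46.1 to 52.4) and 6.14 CPM in myeloid cells. In KO too the fibroblast and endothelial intervals overlap, and the endothelial one, from 26 cells, begins just above that of melanoma cells.

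Ctgf was highest in the same 2 stromal classes. In WT fibroblasts it was at 282 CPM (245 to 324, 206 UMIs), above the endothelial 72.2 CPM (45.3 to 109, 22 UMIs). In KO the fibroblasts were at 119 CPM (97.6 to 143, 110 UMIs) and the endothelial cells at 135 CPM (73.7 to 226, 14 UMIs), which are not separated. Rgs5, a pericyte gene, was at 161 CPM in the endothelial gate of WT and 434 CPM in that of KO. Acta2, the smooth muscle actin gene of mural cells, was at 181 CPM in the endothelial gate of WT and 588 CPM in that of KO, where 53 of its 61 UMIs were in 1 cell. The part of both in the endothelial Ctgf values was not tested. Melanoma cells had 5.22 and 4.76 CPM of Ctgf and myeloid cells 0.673 and 2.36 CPM.

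By CPM, Nov, Wisp1 and Wisp2 were highest in fibroblasts, though other classes held part of their UMIs. Wisp1 was at 188 CPM in WT fibroblasts (158 to 222, 137 UMIs) and 2.71 CPM in WT melanoma cells (2.03 to 3.55, 53 UMIs). In KO it was at 57.2 CPM in fibroblasts, 10.9 CPM in ungated cells and 2.54 CPM in melanoma cells. It had 0 UMIs in the endothelial cells of both libraries, which allows up to 9.85 CPM in WT and 28.9 CPM in KO. Wisp2 was at 112 CPM in WT fibroblasts (89.4 to 139, 82 UMIs), with 3 UMIs in all WT melanoma cells and 0 in the endothelial, myeloid and T/NK cells. Nov was at 58.3 CPM in KO fibroblasts (43.8 to 76.1, 54 UMIs) and at 0.621 CPM in KO melanoma cells (12 UMIs). T/NK cells had 0 UMIs of all 5 members in both libraries, but they were few and shallow, and 0 UMIs there allows up to 60.2 CPM in WT and 160 CPM in KO. Wisp3, the remaining family member, had 0 UMIs in fibroblasts and 3 and 4 UMIs in melanoma cells.

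In fibroblasts, 4 of the 5 CCN genes were lower in KO and Nov was higher. Wisp2 was at 112 CPM (WT) and 10.8 CPM (KO, 5.18 to 19.9 from 10 UMIs). Its log2 KO/WT ratio was -3.38 (-4.49 to -2.43), or 10.4-fold lower. Wisp1 was at 188 CPM (WT) and 57.2 CPM (KO, 42.9 to 74.9 from 53 UMIs), which gives a log2 ratio of -1.71 (-2.20 to -1.25). Ctgf had a log2 ratio of -1.25 (-1.60 to -0.91) and Cyr61 one of -0.82 (-1.20 to -0.44). Nov went from 16.4 CPM in WT (8.5 to 28.7, 12 UMIs) to 58.3 CPM in KO, a log2 ratio of 1.83 (0.91 to 2.86), or 3.55-fold higher. The intervals of the WT and KO levels do not overlap for any of the 5 genes.

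Among the 7288 genes with at least 20 UMIs in fibroblasts of both libraries together, 6.01% were at least 2-fold lower in KO and 5.1% at least 2-fold higher. Of the 5 CCN genes, 3 (Ctgf, Wisp1 and Wisp2) were at least 2-fold lower and 1 (Nov) at least 2-fold higher. Only 5 of the 7288 genes had a lower ratio than Wisp2, with counts under 3 set to 3, and 84 had a lower ratio than Wisp1. For Ctgf and Cyr61 these numbers were 257 and 667, and 72 genes had a higher ratio than Nov. The median log2 ratio was -1.25 over the 5 CCN genes and -0.04 over all 7288.

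**Figure D2:**
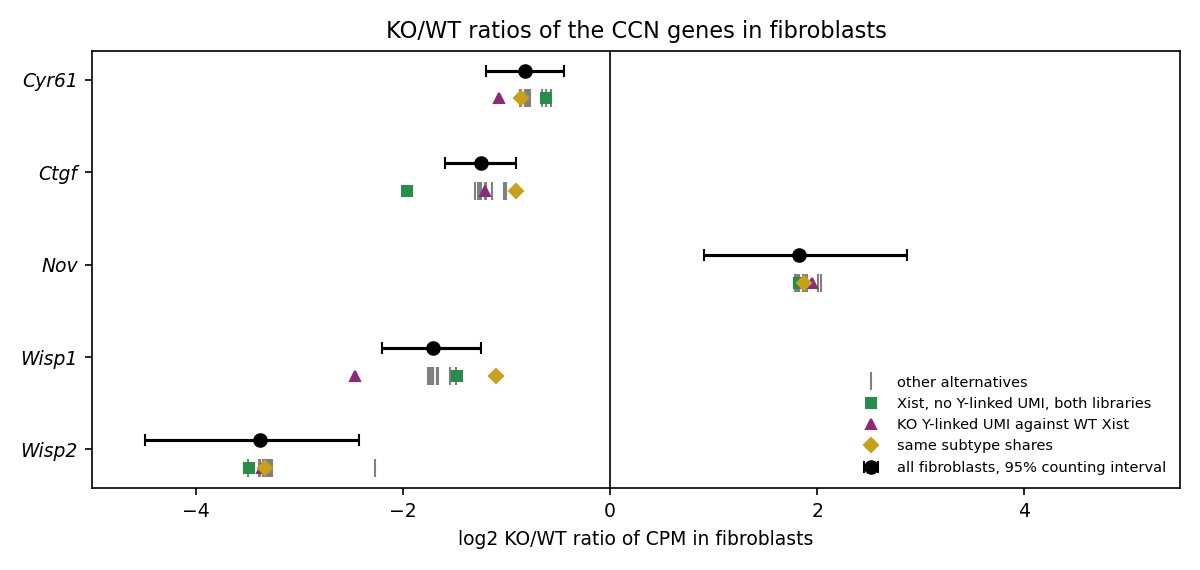
Log2 KO/WT ratio of each CCN gene in fibroblasts. Black circles give the ratio in all fibroblasts with its exact 95% counting interval, and the marks under them give the ratio under 16 alternatives. Every alternative lies on the same side of 0 as the value above it, and the alternatives spread most for Wisp1 (-2.47 to -1.10).

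Among fibroblasts tagged by sex, all 5 genes kept their direction. There were 151 WT and 61 KO fibroblasts that had Xist but none of the Y-linked genes, and 49 KO fibroblasts that had Y-linked UMIs but no Xist. Wisp2 was at 110 CPM in the WT cells with Xist (68 UMIs), and at 9.83 CPM in the KO cells with Xist (2 UMIs) and 10.8 CPM in the KO cells with Y-linked UMIs (3 UMIs). For Nov the values were 19.5 CPM in the WT cells (12 UMIs), 68.8 CPM in the KO cells with Xist (14 UMIs) and 75.4 CPM in those with Y-linked UMIs (21 UMIs). In both genes the 2 KO sets were close to each other and apart from WT. Wisp1 was at 179, 63.9 and 32.3 CPM in the same order. Ctgf was at 307, 78.7 and 133 CPM, so the KO cells with Xist had a larger difference from WT, with a log2 ratio of -1.96 (16 KO UMIs). Cyr61 was at 211, 138 and 101 CPM. Sex and mouse cannot be told apart in these sets. In the 37 WT and 120 KO fibroblasts with neither tag, the log2 ratio was -0.03 (-0.97 to 1.02) for Cyr61 and -0.22 (-1.02 to 0.65) for Ctgf, so no difference was detectable there, against -1.77 (-2.56 to -0.97) for Wisp1 and -3.45 (-5.28 to -1.90) for Wisp2.

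How the molecules were spread over cells differed between members. Ctgf was held by few cells at high counts: 42 of 188 WT fibroblasts had a UMI, 13 of them 5 or more, and the highest 31, which was 15% of the WT total. In KO 39 of 230 fibroblasts had a Ctgf UMI, 6 of them 5 or more, and the highest had 20. Cyr61 was thinly spread, over 74 WT and 68 KO fibroblasts with at most 6 and 4 UMIs each. Wisp1 was found in 69 WT and 32 KO fibroblasts, Wisp2 in 27 and 7, and Nov in 8 and 28. When the cell with the most UMIs of each gene was left out in each library, an alternative chosen after seeing the data, the log2 ratios were -1.31 for Ctgf, 2.03 for Nov and -3.50 for Wisp2.

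**Figure D3:**
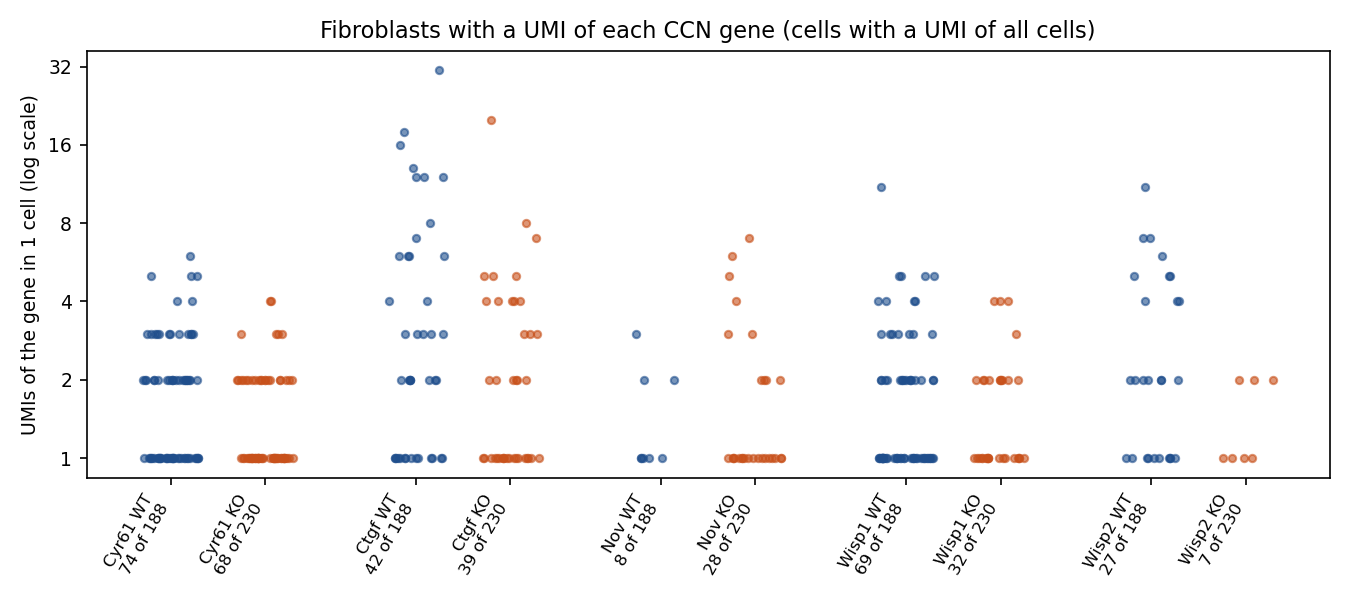
UMIs of each CCN gene in single fibroblasts (log scale), 1 point per cell with at least 1 UMI, WT in blue and KO in orange, spread sideways at random. Ctgf had the highest counts in single cells, 31 in WT and 20 in KO, whereas no fibroblast had more than 6 UMIs of Cyr61.

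The share of fibroblasts with a UMI gave the same directions at equal depth. With each cell thinned to 2000 UMIs, which left out 29 WT and 38 KO fibroblasts, Wisp2 was seen in 11.3% of WT (6.85 to 17.3) and 2.08% of KO fibroblasts (0.570 to 5.25). Wisp1 was seen in 22.0% (15.8 to 29.3) and 8.85% (5.24 to 13.8), and Nov in 1.26% (0.153 to 4.47) and 8.85% (5.24 to 13.8). For these 3 genes the intervals do not overlap. Those of Ctgf (19.5% and 13.5%) and Cyr61 (24.5% and 16.7%) do, so no difference in the share of positive cells was detectable for these 2 genes at this depth. Without thinning the shares in WT and KO were 14.4% and 3.04% for Wisp2, 36.7% and 13.9% for Wisp1, 4.26% and 12.2% for Nov, 22.3% and 17.0% for Ctgf, and 39.4% and 29.6% for Cyr61.

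Myeloid cells served as background for these shares. At 2000 UMIs, Cyr61 was seen in 1.17% of 598 WT and 0.917% of 436 KO myeloid cells, and Ctgf in 0 WT cells and 0.229% of KO cells. Nov, Wisp1 and Wisp2 were seen in 0 cells, which allows a share of up to 0.502% in WT and 0.688% in KO by the limit of 3 counts, and up to 0.615% and 0.843% by the Clopper-Pearson interval. The thinned myeloid cells had a median of 2941.5 UMIs in WT and 2983 in KO, against 4008 and 4068 in the thinned fibroblasts. The Nov share in WT fibroblasts, from 2 cells, has an interval that reaches below both limits.

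With each cell thinned to 2000 UMIs, single fibroblasts showed at most 3 members at once. At that depth 72 of 159 WT and 113 of 192 KO fibroblasts had no CCN UMI. There were 53 and 64 with 1 member, 30 and 13 with 2 members, and 4 and 2 with 3. Ctgf and Cyr61 were seen together in 10 WT cells, where the product of their shares would give 7.60, and in 6 KO cells against 4.33. Wisp1 and Cyr61 were seen together in 5 WT cells against a product of 8.58. These counts are too small to order the pairs.

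Fibroblasts were then divided by 5 marker lists that hold no CCN gene: adventitial (Pi16, Clec3b and others), activated (Lrrc15, Postn and others), cycling, hypoxic and vascular. The groups are ranges of a score and not cell types, and 2 to 9 cells of each such group in each library lay within 0.25 of the next list on the score's scale. The adventitial list led in 38 WT and 58 KO fibroblasts, the activated list in 50 and 20, the cycling list in 40 and 28, the hypoxic list in 12 and 50 and the vascular list in 17 and 41, while 31 and 33 cells were led by none. The make-up of the fibroblasts thus differed between the libraries. Of the 12 vascular markers, 8 in WT and 10 in KO were higher in the vascular group than in other fibroblasts, as the grouping itself favours. Most of the list's UMIs there were of Ndufa4l2, with 83 in WT and 260 in KO, a gene that was also at 751 and 817 CPM in the hypoxic group. The pericyte gene Rgs5 had 9 and 4 UMIs in the vascular group, 8 and 0 in the cycling group and 0 in the others. The group is therefore called by its list and not as pericytes.

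By summed UMIs, Wisp2 in WT and Nov in KO were highest in the adventitial group, but the share of positive cells did not give that order. Wisp2 was at 221 CPM in adventitial WT fibroblasts (140 to 332, 23 UMIs), and at 127 CPM in both the activated (81.3 to 189, 24 UMIs) and the cycling group (83.6 to 185, 27 UMIs). The intervals of these 3 groups overlap, and 2 adventitial cells alone held 11 and 7 of the UMIs. A Wisp2 UMI was seen in 15.8% of adventitial, 22% of activated and 17.5% of cycling WT fibroblasts, or 11.1%, 16.3% and 16.2% at 2000 UMIs. In KO it was at 19.6 CPM in adventitial (4 UMIs) and 13.3 CPM in cycling fibroblasts (2 UMIs), and it had 0 UMIs in the activated group. Against 24 UMIs in WT, Wisp2 was 3.53-fold lower there with 3 UMIs set in place of 0. The exact interval of that log2 ratio ended at -1.41. In adventitial cells the log2 ratio was -3.50 (-5.49 to -1.95) and in cycling cells -3.26 (-6.37 to -1.26). The hypoxic group and the cells led by no list held 2 UMIs each in KO, and the vascular group 0.

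Nov was at 142 CPM in adventitial KO fibroblasts (95 to 204, 29 UMIs), 93.0 CPM in cycling (50.8 to 156, 14 UMIs) and 59.9 CPM in activated ones (19.5 to 140, 5 UMIs), with overlapping intervals. It was at 10.6 CPM in the hypoxic (1.29 to 38.3, 2 UMIs) and 6.35 CPM in the vascular group (0.161 to 35.4, 1 UMI), below the adventitial interval. A Nov UMI was seen in 20.7% of adventitial and 25% of cycling KO fibroblasts, or 18.4% and 20% at 2000 UMIs, and 1 cycling cell held 7 of the 14 UMIs. In WT the adventitial group held 4 Nov UMIs, at 38.5 CPM (10.5 to 98.6), the activated group 3, the cycling group 3, all in 1 cell, and the vascular group 2. The log2 ratio was 1.88 (0.37 to 3.85) in adventitial, 1.92 (-0.45 to 4.60) in activated and 2.72 (0.88 to 5.16) in cycling fibroblasts. In the vascular group it was -2.40 (-8.29 to 1.86), from 2 and 1 UMIs.

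**Figure D4:**
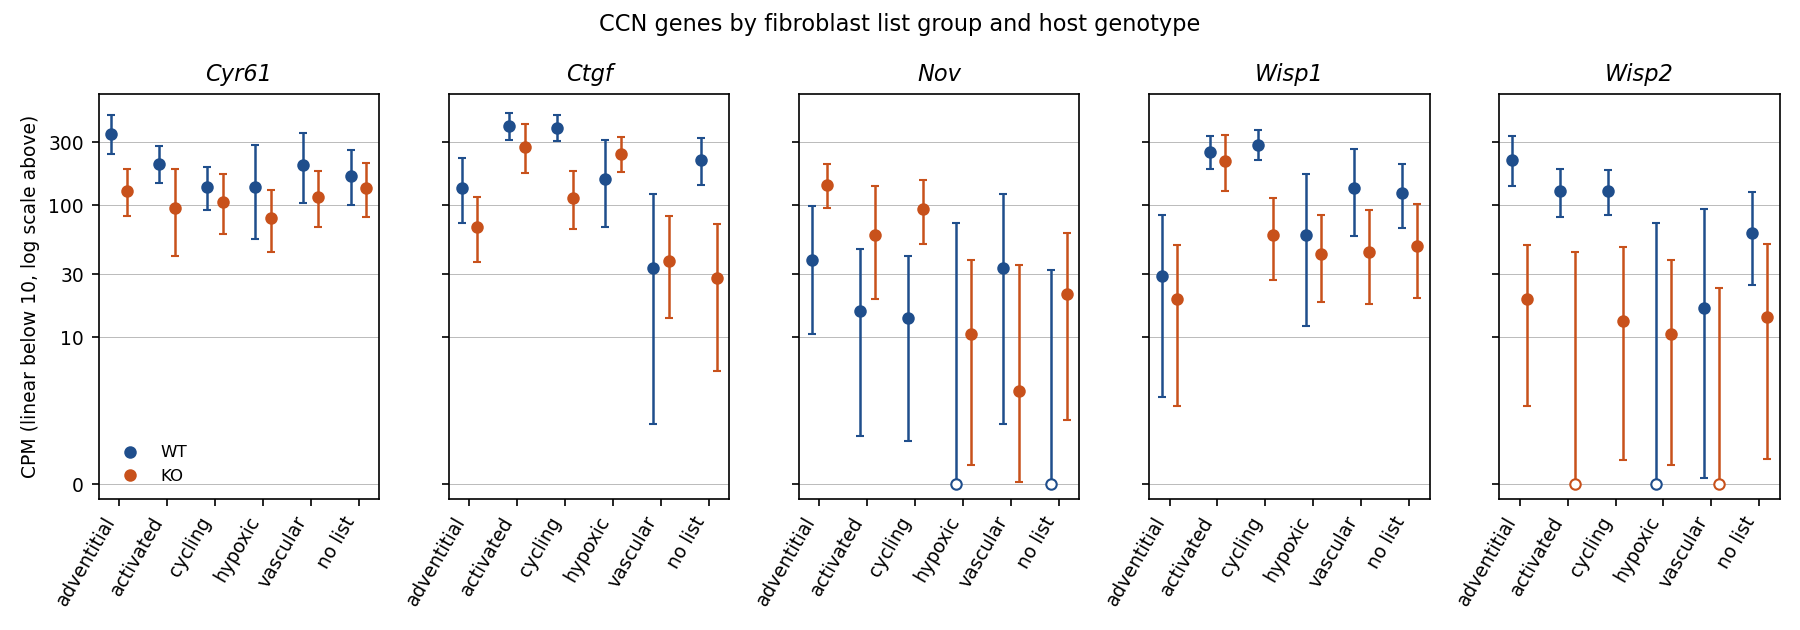
Level of each CCN gene (CPM, linear below 10 and logarithmic above) in fibroblasts divided by the leading marker list, WT in blue and KO in orange, with exact 95% Poisson intervals and open circles at 0 UMIs. By summed UMIs, Nov in KO and Wisp2 in WT were highest in adventitial cells, with intervals that overlap those of activated and cycling cells. Wisp1 was highest in activated and cycling cells of WT, with intervals that overlap that of vascular cells.

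Wisp1 was instead high in the cycling and activated groups. In WT it was at 287 CPM in cycling (219 to 368, 61 UMIs) and 254 CPM in activated fibroblasts (187 to 337, 48 UMIs), but at 28.9 CPM in adventitial ones (5.96 to 84.4, 3 UMIs). In KO the activated group, of 20 cells, was still at 216 CPM (128 to 341, 18 UMIs), with a log2 ratio of -0.24 (-1.10 to 0.57), so that no difference was detectable there. In cycling fibroblasts the log2 ratio was -2.26 (-3.46 to -1.24). When both libraries were given the same share of each group, the Wisp1 ratio over all fibroblasts was -1.10, against -1.71 as measured.

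Ctgf was high in the same groups in WT, at 397 CPM in activated (312 to 497, 75 UMIs) and 385 CPM in cycling fibroblasts (306 to 478, 82 UMIs). In the WT cycling group 4 cells held 31, 18, 12 and 12 of the UMIs. In KO the activated group was at 276 CPM (175 to 413, 23 UMIs) and the hypoxic group at 244 CPM (179 to 326, 46 UMIs), 20 of those UMIs being in 1 cell, and the cycling group at 113 CPM (65.8 to 181, 17 UMIs). The log2 ratio was -1.77 (-2.62 to -1.01) in cycling and -0.53 (-1.27 to 0.16) in activated fibroblasts, and 0.63 (-0.47 to 1.92) in hypoxic ones. The share of cycling cells with a Ctgf UMI was 20% in WT and 21.4% in KO, or 13.5% and 12% at 2000 UMIs, so the cycling ratio came from the counts in a few cells. In cells led by no list the ratio was -2.96 (-4.94 to -1.43), from 25 UMIs in 3 WT cells, 2 of which held 16 and 8, and 4 UMIs in 2 KO cells. With the same share of each group in both libraries the Ctgf ratio was -0.91 over all fibroblasts. In the vascular group Ctgf was at 33.6 and 38.1 CPM (2 and 6 UMIs), but this low level depended on the list. With the vCAF genes that the study used, the log2 ratio of the vascular group over the other fibroblasts was -0.20 in place of -2.54, and that of Wisp1 was 0.52 in place of -0.82.

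Cyr61 was present in all groups. In WT it ran from 136 CPM in cycling (91.2 to 196, 29 UMIs) to 347 CPM in adventitial fibroblasts (243 to 480, 36 UMIs), and in KO from 79.6 CPM in hypoxic (15 UMIs) to 134 CPM in fibroblasts led by no list (19 UMIs). The WT intervals of these 2 groups do not overlap, whereas all KO intervals do. The log2 ratio was below 0 in all 6 groups, from -1.45 (-2.23 to -0.68) in adventitial cells to -0.32 (-1.31 to 0.68) in cells led by no list, and the adventitial group was the only 1 of the 6 whose interval left out 0.

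In cells of the melanoma gate, which were not targeted by the deletion, Cyr61 differed little between hosts. No difference was detectable there for Ctgf, Wisp1 or Nov, and Nov rested on 7 and 12 UMIs. Cyr61 was at 42.7 CPM (WT) and 49.2 CPM (KO), a log2 ratio of 0.20 (0.07 to 0.34). The log2 ratio was -0.13 (-0.55 to 0.29) for Ctgf, -0.10 (-0.69 to 0.49) for Wisp1 and 0.79 (-0.67 to 2.38) for Nov. At 2000 UMIs, 8.21% of 1620 WT (6.92 to 9.65) and 7.40% of 1676 KO melanoma cells (6.19 to 8.76) had a Cyr61 UMI. The melanoma cells with a Cyr61 UMI after thinning (133 WT and 124 KO) were compared with the other thinned cells, some of which had one at full depth. Their hypoxic list level was 2.66 times that of the other cells in WT (1383 against 519 CPM) and 1.52 times in KO (1165 against 767 CPM). Their immediate early genes were at 1.48 and 1.82 times the level of the other cells, and the cycling list at 0.849 and 0.741 times. The cells with a Cyr61 UMI after thinning were of lower full depth, with medians of 10605 against 11861 UMIs in WT and 10133 against 11277.5 in KO. These are descriptions of cells within 1 library.

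The ungated cells stood apart in KO. There Cyr61 was at 106 CPM (93.5 to 120, 253 UMIs, in 103 of 402 cells), against 32.7 CPM in ungated WT cells (19.7 to 51.0, 19 UMIs), a log2 ratio of 1.70 (1.03 to 2.46). Wisp1 had 26 UMIs in ungated KO cells and 0 in WT ones, or 2.11-fold higher in KO with 3 UMIs set in place of 0. The exact interval of that log2 ratio began at 0.68. Atf4 was at 298 CPM in the ungated KO cells and 275 CPM in the ungated WT cells, far from the 44.3 CPM of KO fibroblasts, and Col1a1 at 14.3 and 13.8 CPM. Their median depths were 4582.5 UMIs in KO and 1543 in WT. In KO myeloid cells Atf4 was at 41.5 CPM, and in KO melanoma cells at 200 CPM. Tumour cells low in the melanoma markers would fall among the ungated cells. Which cells the ungated ones are was not determined here.

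The transcription factors, targets, inducers and receptors of the CCN genes were read from lists of the pathway, in genes with at least 20 UMIs in fibroblasts. Of 21 other YAP/TEAD targets 11 were measured, with 1 at least 2-fold lower in KO (Arhgef17, -1.59), 1 at least 2-fold higher (Igfbp3, 1.48) and a median log2 ratio of -0.13. The share past 2-fold in each direction can be read against the 6.01% and 5.1% of all genes. F3, which encodes tissue factor, was at 78.1 and 47.5 CPM, giving a ratio on the log2 scale of -0.72 (-1.32 to -0.12), and Axl, a receptor tyrosine kinase, at 210 and 241 CPM, with 0.20 (-0.10 to 0.51). Ankrd1, another classical YAP target, had 1 and 4 UMIs. Of the 11 measured targets, 6 had a ratio below 0, where the median over all genes was -0.04.

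Of 12 YAP/TEAD, SRF and SMAD factors 11 were measured, with a median log2 ratio of -0.25. Yap1 itself was at 21.9 and 21.6 CPM, and Wwtr1, which encodes its paralogue TAZ, at 119 and 100.4 CPM. The only factor past 2-fold was Mkl2, a coactivator of SRF, with 1.10 (-0.22 to 2.59) from 7 and 19 UMIs. Of all genes, 5.1% were at least 2-fold higher in KO. Immediate early genes, which like Cyr61 and Ctgf respond fast to serum and to tissue dissociation, were lower in KO: 5 of 15 were at least 2-fold lower, 12 had a ratio below 0 and the median was -0.71. Over all 7288 genes, 6.01% were at least 2-fold lower and the median was -0.04. Fos had a log2 ratio of -1.26 (-1.46 to -1.06), Jun -1.23 (-1.44 to -1.03), Egr1 -0.69 (-0.86 to -0.53) and Ier2 -1.34 (-1.73 to -0.97), whereas Ier3 was at 0.41 (0.25 to 0.58) and Klf4 at 0.31 (0.05 to 0.57). The part of this list in the Cyr61 and Ctgf values was not tested. With each cell thinned to 2000 UMIs, fibroblasts with a Cyr61 UMI (39 WT and 32 KO) were compared with the other thinned fibroblasts. The latter may include cells with a UMI at full depth. The immediate early gene level of the cells with a Cyr61 UMI was 1.44 times that of the others in WT and 1.38 times in KO. For Ctgf, with 31 WT and 26 KO cells, these values were 0.708 and 0.882.

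**Figure D5:**
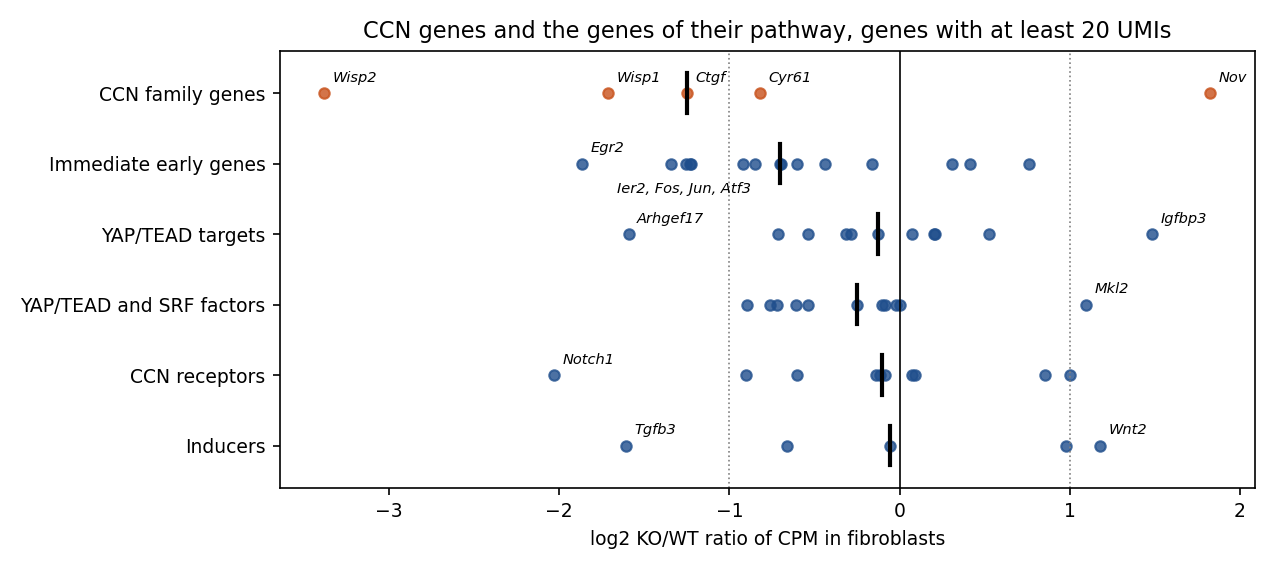
Log2 KO/WT ratio in fibroblasts of the CCN genes (orange) and of the measured genes of 5 pathway lists (blue), with the median of each list as a black bar and dotted lines at a 2-fold difference. The median was -1.25 for the CCN genes and -0.71 for the immediate early genes, and the other 4 medians lay between -0.25 and -0.05.

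Of 10 inducers 5 were measured, and they went both ways. Tgfb1, a strong inducer of Ctgf, was at 166 CPM (WT) and 105 CPM (KO), for a log2 ratio of -0.66 (-1.06 to -0.27), and Tgfb3 at 32.9 and 10.8 CPM, with -1.61 (-2.84 to -0.49). The Wnt ligand genes Wnt2 and Wnt5a had ratios of 1.18 (0.33 to 2.10) and 0.98 (0.11 to 1.91), and Wnt1 had 0 UMIs. Of 15 CCN receptors 10 were measured, with a median of -0.10. The integrin genes that were measured differed in sign: Itgb5 was at -0.90 (-1.36 to -0.45), Itga5 at 0.85 (0.53 to 1.18), and Itgav at -0.09 (-0.42 to 0.25). Sdc4, which encodes a heparan sulphate proteoglycan, was at 151 and 301 CPM with a ratio of 0.999 (0.68 to 1.33). Notch1, a receptor that Nov can bind, was at 61.7 and 15.1 CPM with -2.03 (-3.01 to -1.14). It was the only 1 of the 10 measured receptors past 2-fold. Over all genes, 6.01% were at least 2-fold lower in KO and 5.1% at least 2-fold higher.

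The genes whose levels were most like those of a member were found over 18 points, which were 3 classes and 6 fibroblast groups in each library. These points share libraries and depth, and the correlations are descriptions across 11049 genes with at least 100 UMIs. For Cyr61 they were Serpinh1, a collagen chaperone gene (r = 0.961), Npdc1 (0.945) and Ppic (0.941). For Ctgf they were Tgfb1i1 (0.887), Cdr2 (0.878) and Col15a1 (0.866), and for Wisp1 the homeobox gene Prrx2 (0.950), the lysyl oxidase gene Loxl3 (0.934) and Fibin (0.933). The points of both libraries entered the likeness, so a shared KO/WT difference is partly built into it. In fibroblasts the log2 KO/WT ratio was -1.04 for Serpinh1, -0.49 for Npdc1 and -0.33 for Ppic. It was 0.03 for Tgfb1i1, -0.45 for Cdr2 and -1.25 for Col15a1, and -1.43 for Prrx2, -0.58 for Loxl3 and -0.91 for Fibin. Nov, with 87 UMIs over these points, and Wisp2, with 95, had too few for this comparison.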

How the data were processed

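Tumours were dissociated and loaded on a 10x Genomics 3′ platform, and the values the authors deposited are raw counts, 1 number of UMIs for each gene in each barcode. Per the submitters' processing notes the authors used Cell Ranger 3.1.0 on GRCm38 and Seurat 3.2.1. The labels and the study's methods name different kit versions and ages, and the labels' age is given. The libraries held 38417113 UMIs in 6304 barcodes (WT) and 38290024 UMIs in 5474 barcodes (KO).

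Retained cells had 200 to 5000 genes and no more than 7.5% of UMIs from mitochondrial genes, with a median of 3920 UMIs in WT and 6279 in KO. A cell was over a gate where its summed marker UMIs per 10000 passed a cut (50 for fibroblasts) that was set after the marker distributions, but not the CCN values, were seen. Just below the fibroblast cut (down to 0.5 of it) lay 20 WT and 25 KO cells, and just above it (up to 2 times) 10 and 18. A class holds the cells over exactly 1 gate. No doublet caller was used for the reported values, and Scrublet marked 96 WT and 47 KO cells. Fibroblasts were assigned to the list with the highest z score of log2(level + 5), where it reached 0.5. Counts were summed over the cells of a class and given as CPM with exact Poisson 95% intervals, ratios with exact conditional binomial intervals, and shares with Clopper-Pearson intervals after thinning to 2000 UMIs. The floor for a count of 0 was 3 counts. No p-value was computed, since each genotype had 1 library. Pathway genes were called measured at 20 UMIs or more, and likeness was Pearson's r of log2(CPM + 10).

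The named genes are the 5 members, the genes of the pathway lists and the 3 genes most like each member with at least 100 UMIs. The checks Atf4, Col1a1, Acta2, Xist and the Y-linked genes are also named. Ndufa4l2, Rgs5, Mcam, Heyl and Des were named from the vascular list after its values were seen. The members and lists were chosen with earlier results of these data known. Interval code was tested on simulated data. Analyses used Python 3.11.15, scipy 1.17.1, scanpy 1.11.5, R 4.3.3, Seurat 5.3.0 and edgeR 4.0.16 (TMM scaling only). Alternatives covered the filters, gates, clustering, scaling, doublets, free RNA, sex tags and subtype shares, and 3 were added after the data were seen.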

Additional observations from a re-analysis of the deposited data

Results flagged for a closer look

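Cyr61 stood on opposite sides of 0 in different cell classes under the same host comparison. Its log2 KO/WT ratio was -0.82 in fibroblasts, 0.20 in melanoma cells and 1.70 in ungated cells. The difference between the classes was not tested, since each genotype had 1 library. The ungated cells differed in median depth, at 1543 UMIs in WT and 4582.5 in KO, and the part of depth in that value was not tested.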

How the results depend on the processing

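The log2 KO/WT ratio of each CCN gene in fibroblasts was recomputed under 16 alternatives, and none of the 80 values changed sign. They ran from -1.07 to -0.58 for Cyr61, -1.96 to -0.91 for Ctgf, 1.79 to 2.03 for Nov, -2.47 to -1.10 for Wisp1 and -3.50 to -2.27 for Wisp2, and 75 of the 80 lay within the counting interval of the reported ratio. The other 5 moved outside it. Ctgf was at -1.96 among cells with Xist and no Y-linked UMI and at -0.91 with the same share of each fibroblast group in both libraries. Wisp1 was at -2.47 between KO cells with Y-linked UMIs and WT cells with Xist, an alternative chosen after seeing the data, and at -1.10 with the same share of each group. Wisp2 was at -2.27 as a mean over cells. The causes were not tested. With the vCAF, mCAF and cCAF lists of the study, the ratio of Wisp1 in the vascular group over other fibroblasts was reversed to 0.52. At a minimum of 50 UMIs the median of the inducers was reversed to 0.98, over 3 genes, and 3.94% and 3.15% of genes were at least 2-fold lower and higher. No paired analysis was possible because there was 1 library per genotype, and for the same reason no replicate could be left out. Depth limits Nov in WT and Wisp2 in KO most, at 12 and 10 UMIs in fibroblasts.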
